A study of Mus musculus
Rattus norvegicus and Mus musculus with 6 samples.

Results

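The genes described here are those of the cell death machinery: caspases, inhibitor of apoptosis proteins, BCL2 proteins, BAG cochaperones, the adaptors and kinases of death receptors, and genes named after p53 or after programmed cell death. They were chosen by a rule on gene symbols, with earlier results of these data known, and Birc5, Bcl2l1, Bcl2a1a and Bcl2a1b were left out of the choice. Of 106 protein-coding symbols in the mouse annotation that fit the rule, 37 genes on 51 probes could be named, out of 8102 genes on 9796 probes named in a table with 46628 probes. The other 69 genes, among them Bax, Bak1, Bid, Mcl1, Casp9 and Diablo, were not analysed here. The symbol rule also took in 4 genes on 6 probes that share only the first letters of a name, Dapp1, Fads2, Fads3 and Fads6, and these are described last.

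Apoptosis is run by caspases, proteases that are made as inactive precursors. Initiator caspases are activated on adaptor platforms, either at death receptors on the cell surface or on the apoptosome, which forms in the cytosol once cytochrome c has left the mitochondria, and executioner caspases then cut cellular proteins. BCL2 proteins decide whether the outer mitochondrial membrane is opened, and inhibitor of apoptosis proteins restrain caspases and shape signaling by receptors of the TNF family. Blood progenitors that lose contact with survival cytokines are known to die by the mitochondrial route. Much of this machinery is controlled at the protein level, by cleavage, binding and degradation, which an RNA array does not measure.

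RNA was measured on Illumina Mouse Sentrix-6 BeadChip arrays. In 3 samples, lin-/c-kit+ hematopoietic SC, bone marrow cells depleted of mature blood cells and enriched for the receptor c-kit, had been kept for 48 h in coculture with NRVCM, the ventricular cardiac myocytes of newborn rats. In 3 samples, hematopoietic SC had been kept for 48 h in monoculture. The mice were C57Bl/6 and labelled male, the rats were Wistar and labelled female, no altered gene and no drug is named for either group, and the age of the mice is not given in the sources used here. The study names 3 independent coculture and 3 monoculture experiments, and does not say whether a coculture and a monoculture shared a cell preparation. In both groups the SC were stained with a green cell tracker and sorted 2 times before RNA was isolated. Monoculture wells were seeded with more SC than coculture wells, so the number of SC per well cannot be told apart from the presence of NRVCM. The signals are normalized log2 values, and background was set on each array at the brightest of 72 probes against sequences that are not of the mouse, a log2 signal of 6.93 to 7.01.

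The arrays resembled each other within groups, with correlations over all probes of 0.987 to 0.991 in coculture, 0.990 to 0.993 in monoculture and 0.967 to 0.977 between the groups. Of 11 progenitor markers 3 could be named: the granule gene Mpo was bright on every array, Hoxa9 rose by 0.34 on the log2 scale, and both Ptprc probes stayed at or near background. Hoxa9 too was close to background, with 7.05 to 7.28 in coculture and 6.79 to 6.86, at background, in monoculture. Of 14 monocyte and macrophage markers, 9 genes on 12 probes could be named, and 4 of these genes, Gpnmb, Cd68, Mertk and Ctsb, were lower in coculture and none higher. The 12 probes all had a mean above background, and their summed linear signal was 31087 to 44865 on the coculture arrays and 80930 to 88984 on the monoculture arrays. Of 13 cardiomyocyte markers 5 were named, and none passed. Their summed signals were 561 to 570 in coculture and 528 to 550 in monoculture, though only 1 of the 5 probes had a mean above background. Mybpc3, close to background, had 6.87, 6.98 and 7.20 in coculture and 6.79 to 6.84 in monoculture (adjusted p = 0.26 in limma). Of 8 mast cell and basophil markers 2 were named, Fcer1a and Cma1, and neither passed, though both had an unadjusted p under 0.05 and groups that did not overlap, with summed signals of 232 to 459 in coculture and 553 to 975 in monoculture. Fcer1a had a difference of -1.28 (adjusted p = 0.18), and Cma1 was at background on all arrays. None of 5 named fibroblast markers and none of 4 named genes of mature T, erythroid and myeloid cells, of which only Itgam (CD11b) encodes an antigen used in the depletion, changed either, and at an unadjusted p under 0.05 in limma there were 1 cardiomyocyte, 0 fibroblast and 2 lineage probes. Although all mice were labelled male, the Y-linked Eif2s3y was above background only on coculture array 2 (8.93, against 6.23 to 6.33 on the other 5 arrays), and the brighter of 2 Xist probes was at background on that array alone. A signal here is an average over sorted cells, so fewer cells of a type and less RNA per cell cannot be told apart, and values without coculture array 2 are given below together with the other alternatives.

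Genes of the caspase and BCL2 core did not pass the test between cocultured and monocultured SC, whereas 7 of the 20 surrounding death and survival genes did. Only 6 of the 17 core probes had a mean above background, against 22 of the 28 surrounding ones, so these counts do not compare like probes. Over all named genes 841 of 8102 had a probe that passed, and 771 of 3507 among those with a probe whose mean was above background. Of the 51 probes 10 (19.6%) had an adjusted p under 0.05 in limma, with 6 higher in coculture and 4 lower, which gave 5 genes with a higher probe and 4 with a lower one. Dapp1 counted in both, so 8 genes had a probe that passed. For comparison, 6.46% of the probes of the table passed, 3.25% higher and 3.22% lower, and among probes named by a gene ID 9.12% passed. Dim probes seldom pass, and the share depends on how many of them a list holds: 31 of the 51 probes had a mean above background, all 10 changed probes were among these (32.3%), and the share over all probes with a gene ID and a mean above background was 20.9%. The groups did not overlap on 16 probes (31.4%), against 23.1% of all probes and 26.9% of probes with a gene ID. Among those with a mean above background, it was 13 of the 31 (41.9%), against 44% of probes with a gene ID. The median log2 fold change was 0.05 over the 51 probes and -0.00 over all probes. It was 0.10 over the 31 probes with a mean above background and 0.04 over all such probes with a gene ID. Only Dapk1, Trp53inp2 and Ciapin1 also differed by more than 1.5-fold, and 3.65% of all probes met both conditions. Among probes with a gene ID and a mean above background, 499 of 3916 met both, against 3 of the 31.

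**Figure D1:**
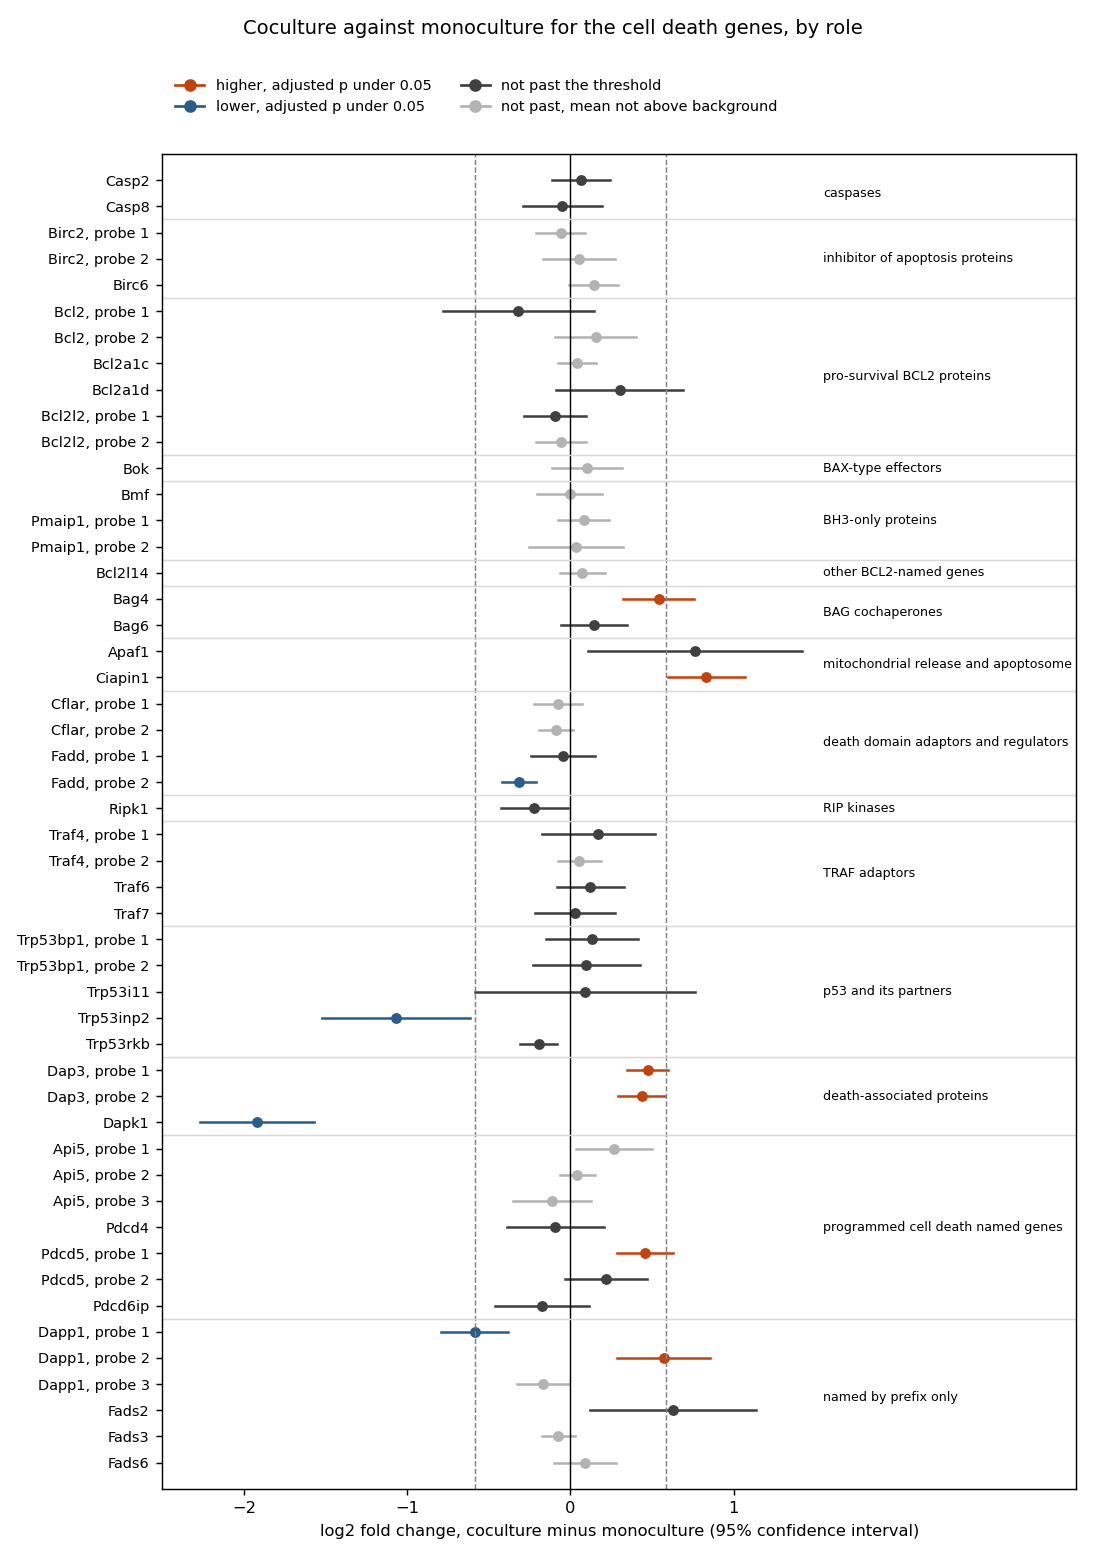
Log2 fold change of the probes of the cell death genes (points), coculture minus monoculture, with its 95% confidence interval in limma (lines), grouped by role; dashed lines mark 1.5-fold in either direction, and probes of a gene are numbered by falling mean signal. None of the caspase, inhibitor of apoptosis or BCL2 probes shown passed, Dapk1 (-1.92) and Trp53inp2 (-1.07) lie far to the left, and Ciapin1 (0.83) lies farthest to the right among probes that passed.

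The initiator caspase genes Casp8 and Casp2 were above background on every array and did not pass the threshold. Casp8, the initiator caspase of death receptors, had signals of 10.96, 10.98 and 10.92 in coculture and 11.08, 10.78 and 11.16 in monoculture. Its groups overlapped, and the interval of the difference, -0.29 to 0.19, lay within 1.5-fold in either direction. Casp2, an initiator caspase linked to DNA damage, ranged from 11.14 to 11.36 in coculture and from 11.16 to 11.29 in monoculture (difference 0.07, interval -0.11 to 0.25, adjusted p = 0.75).

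The inhibitor of apoptosis genes gave almost no signal on their probes. Birc2, a ubiquitin ligase in TNF receptor complexes, had means of 6.89 ± 0.10 in coculture and 6.95 ± 0.05 in monoculture (SD, n = 3 each) on its first probe, which was above background on 1 array of each group, and its second probe was at background on all arrays. Birc6, a very large member of the family, was at background on all 6 arrays. No level or change can be given for Birc6 from signals of this kind, and its difference of 0.14 did not pass (adjusted p = 0.30).

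None of the 11 probes of 8 BCL2 genes passed the test or had an unadjusted p under 0.05 in limma, and 6 of these probes were at background on all 6 arrays. Bcl2, the founding survival protein, had log2 signals of 7.09, 7.34 and 7.79 in coculture and 7.53, 7.69 and 7.95 in monoculture on its first probe. The groups overlapped, the difference was -0.32 (interval -0.78 to 0.14, adjusted p = 0.48), and this interval was too wide to leave out a fall of 1.5-fold. Bcl2a1d, a survival protein of myeloid cells, had signals of 10.66, 11.24 and 11.02 in coculture and 10.66, 10.85 and 10.49 in monoculture. Its difference of 0.30 (interval -0.09 to 0.69) did not pass either, and because the Bcl2a1 genes are near-identical copies, its probe may also take up RNA of the other copies. Bcl2l2, also called Bcl-w, had means of 9.60 ± 0.12 in coculture and 9.69 ± 0.09 in monoculture (SD, n = 3 each), with an interval of -0.29 to 0.10 that lay within 1.5-fold. Among the genes that promote membrane opening, Bok, a relative of BAX, was above background on 1 array of each group, and the BH3-only genes Bmf and Pmaip1 (Noxa) were at background on every array, as were Bcl2a1c and Bcl2l14. Over caspases, inhibitors of apoptosis and BCL2 proteins together, 0 of 17 probes passed in limma, 1 had an unadjusted p under 0.05, and 14 had intervals within 1.5-fold, although 11 of the 17 had a mean that was not above background.

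The largest rise that passed among these genes was that of Ciapin1 (gene ID 109006), which encodes anamorsin, a protein of cytosolic iron-sulfur cluster assembly that was first named as an inhibitor of apoptosis induced by cytokine withdrawal. Ciapin1 had log2 signals of 11.49, 11.28 and 11.62 in coculture and 10.70, 10.52 and 10.67 in monoculture. The lowest coculture array lay well above the highest monoculture array, and the gene rose 1.78-fold (0.83 on the log2 scale, standard error 0.10, adjusted p = 0.0077). The study listed Ciapin1 on the basis of the same arrays, so this rise is no independent evidence. Apaf1, the scaffold of the apoptosome, had signals of 8.19, 7.42 and 7.68 in coculture and 6.74, 7.51 and 6.76 in monoculture, where 1 of 3 arrays was above background. Monoculture array 2 lay within the coculture range, and the difference of 0.76 (interval 0.11 to 1.42) did not pass the test (adjusted p = 0.20).

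Bag4 (gene ID 67384), which encodes the silencer of death domains, a cochaperone of Hsp70 that holds TNF receptor 1 in an inactive state, rose 1.46-fold. Its log2 signals were 9.49, 9.22 and 9.41 in coculture and 8.76, 8.76 and 8.97 in monoculture. The groups did not overlap (log2 fold change 0.54, standard error 0.09, adjusted p = 0.022). Bag6, a cochaperone that guides newly made membrane proteins and also handles defective ones, had means of 9.92 ± 0.16 in coculture and 9.77 ± 0.05 in monoculture (SD, n = 3 each), a difference of 0.15 that did not pass (adjusted p = 0.45).

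Fadd (gene ID 14082), the adaptor that joins death receptors to caspase-8, was measured by 2 probes that did not give the same picture. On the second probe its log2 signals were 8.77, 8.81 and 8.84 in coculture and 9.09, 9.16 and 9.12 in monoculture. The spread within groups was small there, and Fadd fell by 0.32 on the log2 scale (standard error 0.04, adjusted p = 0.012). On the first probe the signals were 9.72, 9.76 and 9.89 in coculture and 9.69, 9.94 and 9.87 in monoculture, which overlapped (difference -0.04, interval -0.24 to 0.15, adjusted p = 0.86). The changes on the 2 probes differed by 0.27, with p = 0.1 in a two-sided exact permutation test over the 20 splits of 3 against 3 arrays, the smallest p this design allows. Cflar, the regulator that competes with caspase-8 for Fadd, was at background on both probes on all arrays.

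The kinase and the TRAF adaptors downstream of TNF receptors did not pass. Ripk1, the kinase of TNF receptor complexes, had log2 signals of 9.50, 9.37 and 9.18 in coculture and 9.52, 9.63 and 9.56 in monoculture. The groups did not overlap, by a narrow margin, and the difference of -0.22 (interval -0.43 to -0.01) had an adjusted p of 0.24. Traf6, the ubiquitin ligase of Toll-like and interleukin-1 receptors, had means of 8.44 ± 0.09 in coculture and 8.32 ± 0.15 in monoculture (SD, n = 3 each). Traf4, Traf6 and Traf7 had differences of 0.03 to 0.17 over 4 probes, with all 4 intervals within 1.5-fold.

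**Figure D2:**
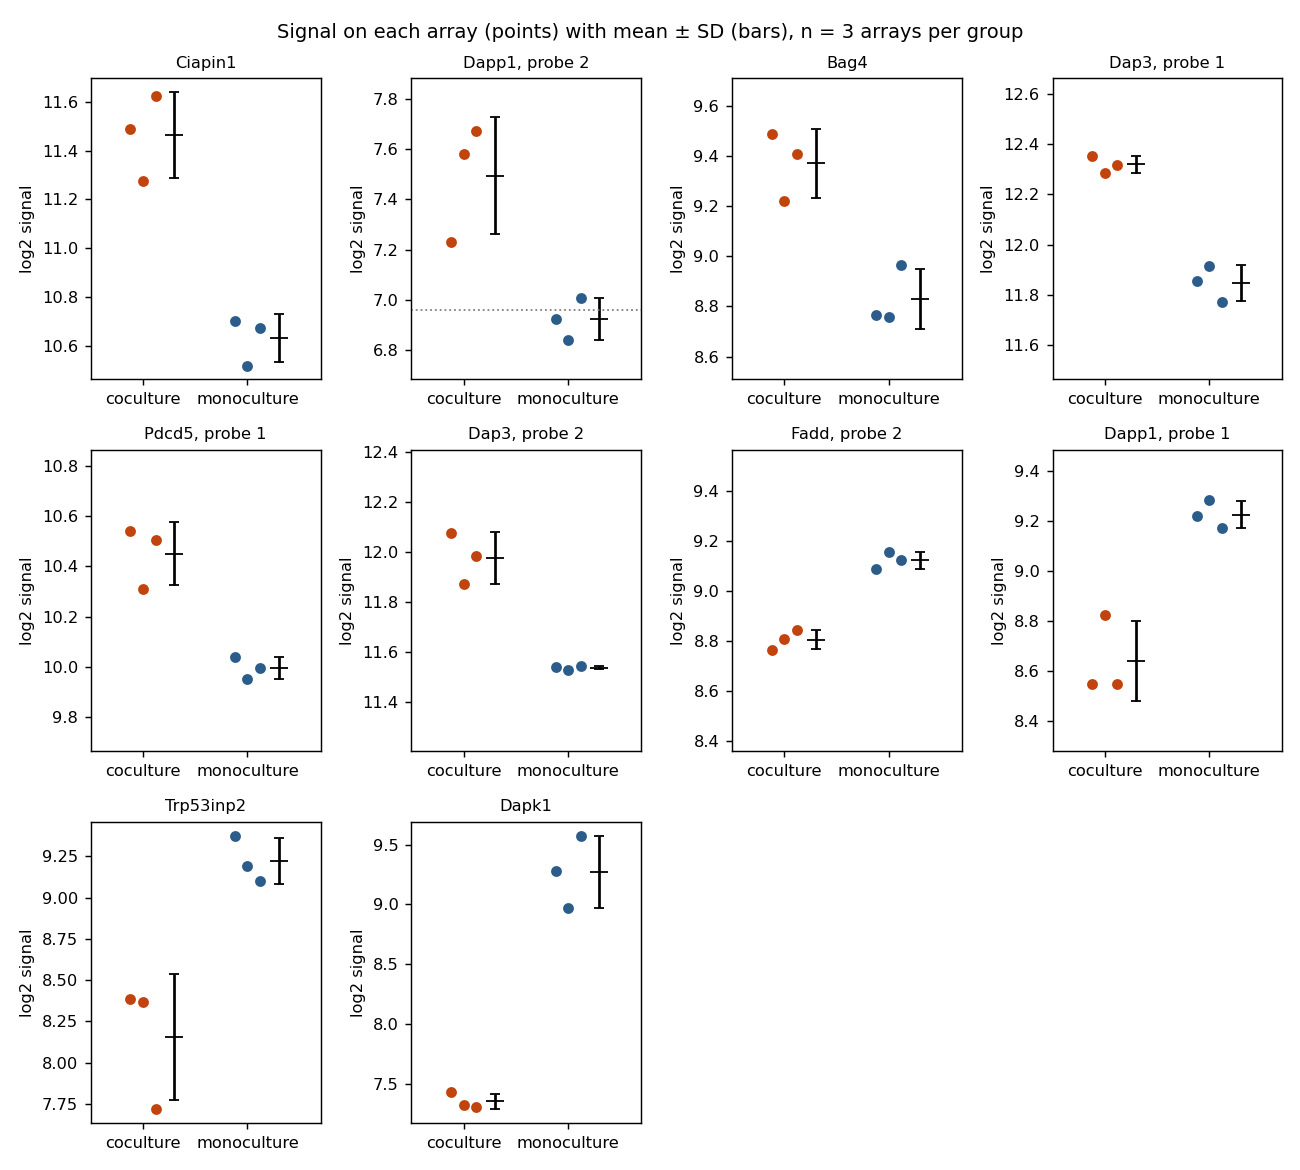
Log2 signal on each array (points, coculture in orange and monoculture in blue) with the mean and SD of the 3 arrays of each group (bars) for the 10 probes that passed, in order of falling log2 fold change; each panel has its own log2 axis and the dotted line is the mean background limit of 6.96. In every panel the 3 coculture points lie on one side of the 3 monoculture points, and the coculture points of Dapk1 reach down to 7.31.

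Dapk1 (gene ID 69635), a calcium- and calmodulin-regulated kinase that takes part in death signaling and autophagy, had the largest difference of all 51 probes. Its log2 signals were 7.43, 7.32 and 7.31 in coculture and 9.28, 8.97 and 9.57 in monoculture. The coculture arrays were close together and not far above background, and none came near the monoculture range. Dapk1 was 3.78-fold lower in coculture (log2 fold change -1.92, standard error 0.14, interval -2.27 to -1.57, adjusted p = 0.0020). Like the other probes that fell, it moved in the same direction as the macrophage markers, with 4 genes lower, and as the summed mast cell and basophil signal given above, and the part of these signals in the falls was not tested.

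Dap3 (gene ID 65111) carries a similar name but encodes a GTP-binding protein of the small subunit of the mitochondrial ribosome. It was the only gene of the set in which every one of several probes passed. Its first probe gave log2 signals of 12.35, 12.29 and 12.32 in coculture and 11.85, 11.92 and 11.77 in monoculture, and the second gave 12.08, 11.87 and 11.98 in coculture and 11.54, 11.53 and 11.54 in monoculture. The groups were apart on both probes, by 0.47 on the log2 scale (standard error 0.05, adjusted p = 0.0060) on the first and by 0.44 (standard error 0.06, adjusted p = 0.011) on the second. The difference between these changes was 0.03 (two-sided exact permutation p = 0.6).

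Of the genes named after programmed cell death, Pdcd5 (gene ID 56330), whose product binds the chaperonin that folds tubulin, rose on its first probe. The log2 signals of that probe were 10.54, 10.31 and 10.50 in coculture and 10.04, 9.95 and 9.99 in monoculture. All coculture arrays were higher, by 0.46 (standard error 0.07, adjusted p = 0.017). The second probe gave 8.17, 8.002 and 8.06 in coculture and 7.73, 7.76 and 8.08 in monoculture, where monoculture array 3 lay within the coculture range (difference 0.22, adjusted p = 0.35). The 2 changes differed by 0.24, with a two-sided exact permutation p of 0.2. Pdcd4, an inhibitor of translation initiation, had means of 10.96 ± 0.23 in coculture and 11.06 ± 0.11 in monoculture (SD, n = 3 each, adjusted p = 0.80). Pdcd6ip, also called Alix, a protein of endosomal sorting and membrane repair, had a difference of -0.18 (adjusted p = 0.55). The first of 3 Api5 probes, for an inhibitor of apoptosis outside the families above, was above background on 1 coculture array and on no monoculture array, and its difference of 0.27 did not pass (adjusted p = 0.21).

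The p53 gene itself was not among the named probes, and of 4 genes named after it Trp53inp2 changed. Trp53inp2 (gene ID 68728), which encodes a protein of autophagosome formation, had log2 signals of 8.38, 8.36 and 7.72 in coculture and 9.38, 9.19 and 9.10 in monoculture. All coculture arrays were lower, coculture array 3 by the most, and the gene was 2.10-fold lower (log2 fold change -1.07, standard error 0.19, interval -1.52 to -0.62, adjusted p = 0.025). Trp53bp1, a DNA break repair factor that binds p53, was measured by 2 probes, with differences of 0.13 and 0.10 that did not pass. Trp53rkb, a p53-related protein kinase, had means of 7.46 ± 0.06 in coculture and 7.66 ± 0.01 in monoculture (SD, n = 3 each). Its groups did not overlap, yet the difference of -0.19 missed the threshold (adjusted p = 0.066). Trp53i11, a p53-inducible gene, was spread too widely for a statement in either direction, with 7.16, 7.32 and 8.20 in coculture and 7.63, 7.60 and 7.18 in monoculture (interval -0.59 to 0.77).

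**Figure D3:**
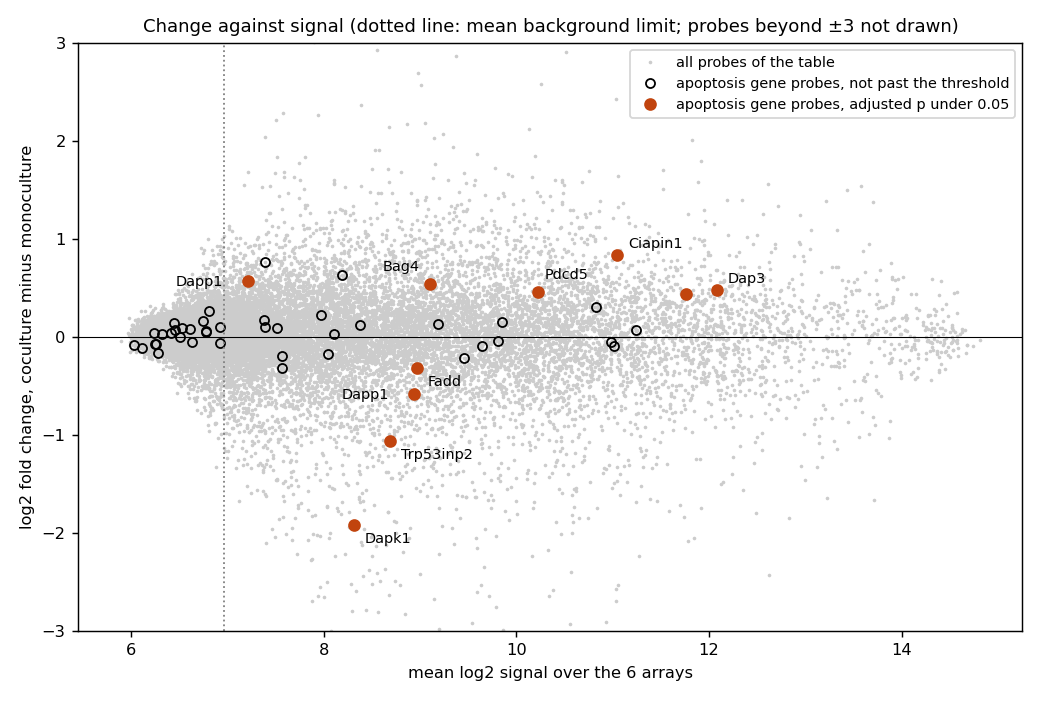
Log2 fold change, coculture minus monoculture, against the mean log2 signal over the 6 arrays, for all probes of the table (gray) and for the probes of the cell death genes (filled where the adjusted p was under 0.05, open otherwise); the dotted line is the mean background limit and probes beyond 3 in either direction are not drawn. The filled points lie to the right of the limit of 6.96, and 20 of the 51 probes had a mean that was not above background.

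Among the 21 probes that had a mean above background and did not change, 15 had a confidence interval within 1.5-fold in either direction. Among the exceptions were Apaf1, Fads2, Trp53i11, the first probe of Bcl2 and Bcl2a1d, for which a change of that size was not left out by these arrays. At the dim end, 8 of the 37 genes had every probe at background on all 6 arrays, 25 had a probe above background on all arrays, and Apaf1, Api5, Birc2 and Bok lay in between. Several probes were present for 12 genes, and in 8 of them all probes differed in the same direction. Dap3 passed on all of its probes, and Fadd, Pdcd5 and Dapp1 on some.

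Dapp1, Fads2, Fads3 and Fads6 belong to the set by their first letters alone, and without them 8 of 45 probes (17.8%) passed. Dapp1 (gene ID 26377) encodes a membrane-binding adaptor of B cell receptor signaling. Its first probe gave log2 signals of 8.55, 8.83 and 8.55 in coculture and 9.22, 9.28 and 9.17 in monoculture, a fall (-0.58 on the log2 scale, standard error 0.09, adjusted p = 0.015). Its second probe gave 7.23, 7.58 and 7.67 in coculture and 6.92, 6.84 and 7.01 in monoculture, a rise of 0.57 (standard error 0.12, adjusted p = 0.042), the value just inside the threshold. The probes of this gene thus passed in opposite directions, the second was above background on 1 of 3 monoculture arrays, and the third was at background throughout. The changes on the first 2 probes differed by -1.16. The two-sided exact permutation p of 0.1, the smallest this design allows, was fixed in advance here and adds nothing, as the groups lay apart in opposite directions on the 2 probes. No direction can be given for Dapp1 as a gene. Fads2, a desaturase of polyunsaturated fatty acids, had signals of 8.03, 8.66 and 8.81 in coculture and 7.71, 8.08 and 7.83 in monoculture. Coculture array 1 lay within the monoculture range and the difference of 0.63 did not pass (adjusted p = 0.17), while it did without that array (adjusted p = 0.033). Fads3 and Fads6 were at background on all arrays.

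The direction of change was the same for all 10 probes in each of 12 alternatives, but this was fixed in advance and is no support. The groups of these probes did not overlap, so leaving out 1 array cannot turn a sign. The other alternatives left the differences the same or nearly so. What could vary, though hardly under recentring, was whether a probe passed, and not all of them passed each time. Dapk1, Ciapin1 and both Dap3 probes passed in all 12, with log2 fold changes of -2.07 to -1.77 for Dapk1 and of 0.75 to 0.93 for Ciapin1. Fadd passed in 11 and missed when the variance was fitted with an intensity trend (adjusted p = 0.17). Bag4 passed in 8, Trp53inp2 in 8 and Pdcd5 in 7. Of the Dapp1 probes, the first passed in 10 and the second in 6, with adjusted p in limma up to 0.14 for the second. Bag4 and Pdcd5 missed without coculture array 1 or 3 or without monoculture array 1 or 2, with adjusted p up to 0.087 for Bag4. Trp53inp2 missed without coculture array 1 or without monoculture array 1, 2 or 3, with adjusted p up to 0.098. Without coculture array 2, the array with the Y-linked signal, 9 of the 10 probes still passed and the second Dapp1 probe did not.

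**Figure D4:**
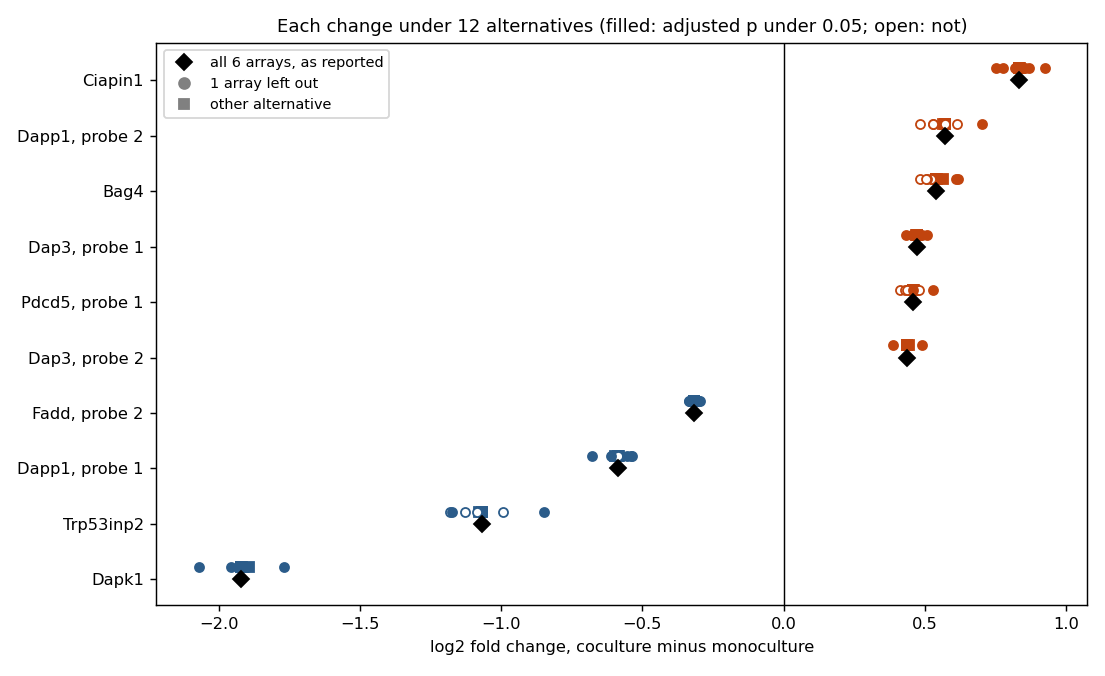
Log2 fold change, coculture minus monoculture, of the 10 probes that passed, with all 6 arrays (diamonds), with 1 array left out (circles) and under other alternatives (squares); filled symbols had an adjusted p under 0.05 and open symbols did not. No symbol lies on the other side of 0 from its diamond, which was fixed in advance because the groups of these probes do not overlap. Dapk1, Ciapin1 and both Dap3 probes have filled symbols alone.

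In 5 pathway lists around these genes, 7 of 46 probes (15.2%) passed the test, against 6.46% of all probes and 9.12% of probes with a gene ID. Of those with a mean above background, 7 of 30 (23.3%) passed, against 20.9% of probes with a gene ID. Of 18 genes of death receptors, ligands and receptor adaptors 7 were named, of which 2 rose and 0 fell: Tnfrsf26 by 0.77 on the log2 scale (adjusted p = 0.018) and Tnfrsf22 on its first probe by 0.62 (adjusted p = 0.0075), both receptors of the TNF family in mice. The study listed Tnfrsf22 on the basis of the same arrays, and at an unadjusted p under 0.05 in limma 1 probe of this list, that of Tnfrsf1b, was lower (-0.76, adjusted p = 0.081). Tnfrsf1a, the main TNF receptor, had means of 12.08 ± 0.11 in coculture and 12.07 ± 0.07 in monoculture (SD, n = 3 each) and did not pass. Of 24 genes of mitochondrial release, apoptosome and caspase substrates 13 were named, of which Dffa, the inhibitor of the caspase-activated nuclease, rose by 0.34 (adjusted p = 0.031) and the mitochondrial channel Vdac1 by 0.22 (adjusted p = 0.027). In limma 0 fell in this list, also at an unadjusted p under 0.05, where 6 probes were higher. In either direction 8516 of 46628 probes of the table had such a p, and 1824 of 3916 with a gene ID and a mean above background. The median log2 fold change of the 14 probes of this list was 0.17, against -0.00 over all probes. Of these 14 probes 9 had a mean above background, and the median over all probes with a gene ID and such a mean was 0.04.

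Of 25 p53 regulators and targets 6 were named and 1 changed. Cdkn1a, which encodes the cell cycle inhibitor p21, had log2 signals of 10.82, 11.33 and 11.66 in coculture and 9.71, 9.52 and 9.78 in monoculture on its first probe. It was higher on every coculture array and rose by 1.60 on the log2 scale (standard error 0.21, adjusted p = 0.0100) on this probe and by 1.47 (adjusted p = 0.012) on the second. The other named p53 genes, Ccng1, Mdm4, Rrm2b, Tnfrsf10b and Zmat3, did not pass, and Cdkn1a too had been listed by the study on the basis of these arrays. Of 27 genes of NF-kB signaling and necroptosis 7 were named, and in limma 0 rose, also at an unadjusted p under 0.05, and 1 fell. Ikbkg, the regulatory subunit of the IkB kinase also known as Nemo, had signals of 7.63, 7.70 and 7.59 in coculture and 8.53, 8.67 and 8.75 in monoculture. The groups were far apart, and Ikbkg was 2.01-fold lower (log2 fold change -1.01, standard error 0.07, adjusted p = 0.0014). At an unadjusted p under 0.05 in limma 3 probes of this list were lower, that of Ikbkg and those of Map3k14 (-0.45, adjusted p = 0.14) and Tnip1 (-0.36, adjusted p = 0.22). Among probes with a gene ID and a mean above background, 1824 of 3916 had such a p in either direction. Of 15 inflammasome and pyroptosis genes 6 were named and 0 changed in limma. At an unadjusted p under 0.05 there was 1, Gsdme, which encodes a pore-forming gasdermin, with a difference of -0.61 (adjusted p = 0.11).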

How the data were processed

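Total RNA of sorted hematopoietic SC was measured on 6 bead arrays, 3 of 48 h cocultures and 3 of 48 h monocultures, grouped by the labels. The authors removed outlier beads at a median absolute deviation over 2.5, took the mean of the beads left for a probe and applied a normalization by quartiles, with beadarray 1.8.0 and limma 2.14.7 in R 2.7.2. Deposited signals are log2 values between 5.81 and 14.85. Background correction and genome build are not given in the sources used here. A table of signals before normalization was not used, since nothing ties its 12 numbered columns to the samples.

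Gene IDs in the probe names were matched to RefSeq symbols (annotation of GRCm38.p6), which named 8102 genes on 9796 probes and left 36832 probes unnamed. Group differences of all 46628 probes were tested two-sided with limma 3.58.1 in R 4.3.3 (lmFit, eBayes), with Benjamini-Hochberg adjustment over all probes, after the procedure had been tested on simulated data. A probe passed at an adjusted p under 0.05, and intervals are at 95%. The background limit, from 72 control probes, was set after the values were seen. Arrays have no read depth, and their number, 3 per group, limits the precision.

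Genes and lists were chosen with earlier results of these data known. By rule, the text names each gene with a probe that passed, the brightest gene of each role, the probes just inside and outside the threshold and, of each pathway list, the largest passing change in each direction. Other genes were named after their values were seen, and 1 result that the rule would name is not reported here. Alternatives left out single arrays or dim probes, blocked by replicate number, recentred or weighted the arrays, fitted an intensity trend, required 1.5-fold or took the brightest probe of a gene.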

Additional observations from a re-analysis of the deposited data

How the results depend on the processing

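Over all 6 arrays 5 genes were higher and 4 lower in coculture, with Dapp1 counted in both, so 8 genes changed. No alternative turned a direction, which was fixed in advance because the groups of the passing probes did not overlap. Leaving out 1 array at a time gave 2 to 4 genes higher (2 without coculture array 3 or monoculture array 1 or 2) and 2 to 4 lower (2 without coculture array 1 or monoculture array 1), while 1382 to 2947 of all probes passed, against 3014 with every array. These fits have fewer arrays. Requiring more than 1.5-fold beside the adjusted p left 1 gene higher, 2 lower and 1704 probes in all, as that rule is stricter. Same-numbered arrays did not deviate together (correlations of -0.11, -0.11 and -0.10, with no array closest to its own number), so the replicate numbers were taken as names; with them as a block 4 genes were higher, 4 lower and 1746 probes passed, and the second Dapp1 probe missed. An intensity trend with robust variance gave 4 genes higher and 3 lower, and Fadd and Pdcd5 missed. Leaving out dim probes gave 6 higher and 4 lower, also with a lower background limit that was chosen after seeing the data. Array weights left 5 higher and 4 lower. Recentring did too, but the array medians it subtracted were already 8.487 to 8.488, so it could change almost nothing and is no support. Counting a gene by its brightest probe gave 4 higher and 3 lower. Of the 51 probes, 16 were at background on all 6 arrays and can show no change.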
